A study of Mus musculus with 8 samples.

Results

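Phosphate and calcium absorption genes are described here in the small intestine of mouse fetuses that lack Plagl2 and of wild-type fetuses. They are 10 of the 18194 genes that the array names by a probe set of their own: the sodium-phosphate cotransporter genes Slc34a1, Slc34a2, Slc34a3, Slc20a1 and Slc20a2, the scaffold gene Pdzk1 and its partner Pdzk1ip1, the calcium channel gene Trpv6, the calcium-binding protein gene S100g, and Vdr, which encodes the vitamin D receptor. Every probe set that the platform annotation lists with exactly 1 gene symbol was taken where that symbol is 1 of the 10, which gave 15 of the 45101 probe sets on the array. The genes were picked by how their signal differed between the genotypes in earlier results from the same arrays, so their levels and differences are given as a description. Where 1 of their probe sets is said to be called, this states its side of the threshold in the fit of all probe sets and supports nothing further.

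The study used Affymetrix MOE430 2.0 arrays, each carrying sets of short probes for mouse transcripts, on whole small intestine at 18.5 days post coitum (dpc), shortly before birth. The 4 knockout samples lack Plagl2, a transcription factor that binds DNA by zinc fingers and belongs to the PLAG family, and the 4 wild-type samples are of the same age, with 1 array per sample. The labels give neither strain, litter, sex nor how the knockout was made, and they describe the extraction of every sample as one from wild-type tissue, although 4 are titled and sourced as knockouts. Plagl2 (1417517_at) gave signals of 3, 6, 5 and 11 in the knockout arrays, against 824, 817, 697 and 796 in the wild-type arrays, so the titles hold for every array.

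Dietary phosphate crosses the brush border of the enterocyte with sodium, through cotransporters of the SLC34 and SLC20 families. Slc34a2 (NaPi-IIb) is the main type in the intestine, Slc34a1 (NaPi-IIa) and Slc34a3 (NaPi-IIc) are best known from the proximal tubule of the kidney, and Slc20a1 (PiT-1) and Slc20a2 (PiT-2) are found in most tissues. Pdzk1 holds membrane transporters in place at the apical membrane by its PDZ domains, and Pdzk1ip1 (MAP17) is a small membrane protein that binds it. Calcium enters through Trpv6, is carried across the cytosol by S100g, the intestinal calbindin, and leaves at the basolateral side through calcium pumps. Vdr, once bound to the hormonal form of vitamin D, activates genes of this route, S100g and Trpv6 among the known ones, and it acts as a pair with a retinoid X receptor.

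Some facts of the arrays touch several genes. Median signals were 36 to 42 per array. Xist, transcribed from the inactive X chromosome of females, gave 1828 and 1410 in knockout replicates 2 and 3 and 20 to 47 in the other 6 arrays, so the genotypes differed in their share of females. The 3′/5′ ratio of the control probe sets on the log2 scale, which reflects RNA integrity and labelling, was 0.048 ± 0.035 in knockouts and -0.016 ± 0.029 in wild-types (SD, n = 4 each), a difference of 0.064 (exact two-sided permutation p = 0.0286, the smallest that 4 against 4 allows). The lowest knockout, at 0.0174, lay above the highest wild-type, at 0.0064, so genotype and this ratio cannot be fully told apart. Kidney, where several of the genes are strongest, was checked by 5 markers (Umod, Slc12a1, Slc12a3, Aqp2 and Nphs1), and the highest signal of any of them in any array was 48. None of the 5 marks the proximal tubule. In tissue of this kind, fewer cells of a type and less RNA per cell cannot be told apart.

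The stretches upstream of 4 of the genes are shown because these genes changed most between the genotypes, 2 of them higher and 2 lower in the knockout, and because Vdr acts on its targets through DNA. RefSeq windows on GRCm38.p6 were given for 9 of the 10 genes (11 windows, some genes having more than 1 start), Slc20a2 not among them. Each line below holds the 250 bases before the start site, 5′ to 3′ on the gene's strand, and capitals mark matches to the searched letters. The letters were AGGTCA or GGGTCA or AGTTCA or GGTTCA on both strands, the hexamers of which vitamin D response elements are built, and the PLAG consensus, known from human PLAG1, also on both strands. The motifs were picked after the sequences had been seen.
S100g: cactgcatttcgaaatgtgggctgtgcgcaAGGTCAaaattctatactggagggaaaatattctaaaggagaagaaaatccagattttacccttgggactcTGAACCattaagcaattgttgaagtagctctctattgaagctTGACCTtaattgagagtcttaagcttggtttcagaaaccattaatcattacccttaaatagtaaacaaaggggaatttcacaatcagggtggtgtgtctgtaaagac
Vdr: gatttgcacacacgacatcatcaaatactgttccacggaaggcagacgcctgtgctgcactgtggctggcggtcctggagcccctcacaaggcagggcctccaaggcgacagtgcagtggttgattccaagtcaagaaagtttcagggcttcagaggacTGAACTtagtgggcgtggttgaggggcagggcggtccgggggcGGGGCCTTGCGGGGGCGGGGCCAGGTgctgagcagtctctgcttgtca
Slc34a3: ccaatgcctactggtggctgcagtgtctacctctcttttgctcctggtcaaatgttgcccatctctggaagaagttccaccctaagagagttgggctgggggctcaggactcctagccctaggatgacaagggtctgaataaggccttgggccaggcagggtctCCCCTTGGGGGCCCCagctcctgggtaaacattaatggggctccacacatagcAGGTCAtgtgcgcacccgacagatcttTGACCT
Pdzk1ip1: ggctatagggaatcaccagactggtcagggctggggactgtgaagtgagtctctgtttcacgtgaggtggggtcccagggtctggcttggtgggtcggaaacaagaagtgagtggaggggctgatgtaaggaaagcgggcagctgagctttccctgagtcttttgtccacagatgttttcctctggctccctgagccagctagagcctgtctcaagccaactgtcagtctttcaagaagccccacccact
The S100g window lies at chrX:162964600-162964849, minus strand, the Vdr window at chr15:97908297-97908546, minus strand, the Slc34a3 window at chr2:25234235-25234484, minus strand, and the Pdzk1ip1 window at chr4:115088458-115088707, plus strand. The S100g window holds 3 hexamers and no PLAG match. The Vdr window holds 1 hexamer and 2 PLAG matches that overlap each other, the first of which begins 48 bases before the start. The Slc34a3 window holds 2 hexamers, 1 of which ends at the last base before the start, and 1 PLAG match. The Pdzk1ip1 window holds neither. Of all 32851 windows of this length in the table, 38.6% hold at least 1 of the hexamers and 16.8% a PLAG match, so a match in a given window is common. These are matches of letters, not binding sites, and the study measured no binding. The G and C content was 38.4% for S100g, 61.2% for Vdr, 56.4% for Slc34a3 and 55.6% for Pdzk1ip1, beside a median of 52.4% over all windows.

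Signals below are the deposited values in array units, and replicates 1 to 4 of each genotype are given in that order. Fold changes are knockout over wild-type of log2(signal + 16), with standard errors (SE) from a limma fit over all 27022 probe sets bright enough to be tested. Because of the added 16 a fold change of a dim gene is understated. A probe set is called where its Benjamini-Hochberg adjusted p over all tested probe sets is under 0.05. Different probe sets bind with different strength, so a level is compared only between arrays.

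Across the 10 genes the knockout intestine had more S100g, Vdr and Slc20a1 signal and far less Slc34a3 and Pdzk1ip1 signal, while the other 5 genes had no called probe set. Of the 15 probe sets, 14 were bright enough to be tested and 1, of Slc20a1, was not. Of the 14, 4 were called higher, where 5.28% of all tested probe sets were, and 3 lower, where 6.7% of all were. In 5 of the 14 all knockout arrays lay above all wild-type arrays (7.7% of all tested probe sets), in 3 all lay below (9.26% of all), and in 6 the genotypes overlapped. Since the genes were chosen with this contrast known, the counts say nothing about how often such genes change. Fold changes ranged from -4.43 to 1.82, with a median of 0.30, beside a median of 0.03 over all tested probe sets.

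**Figure D1:**
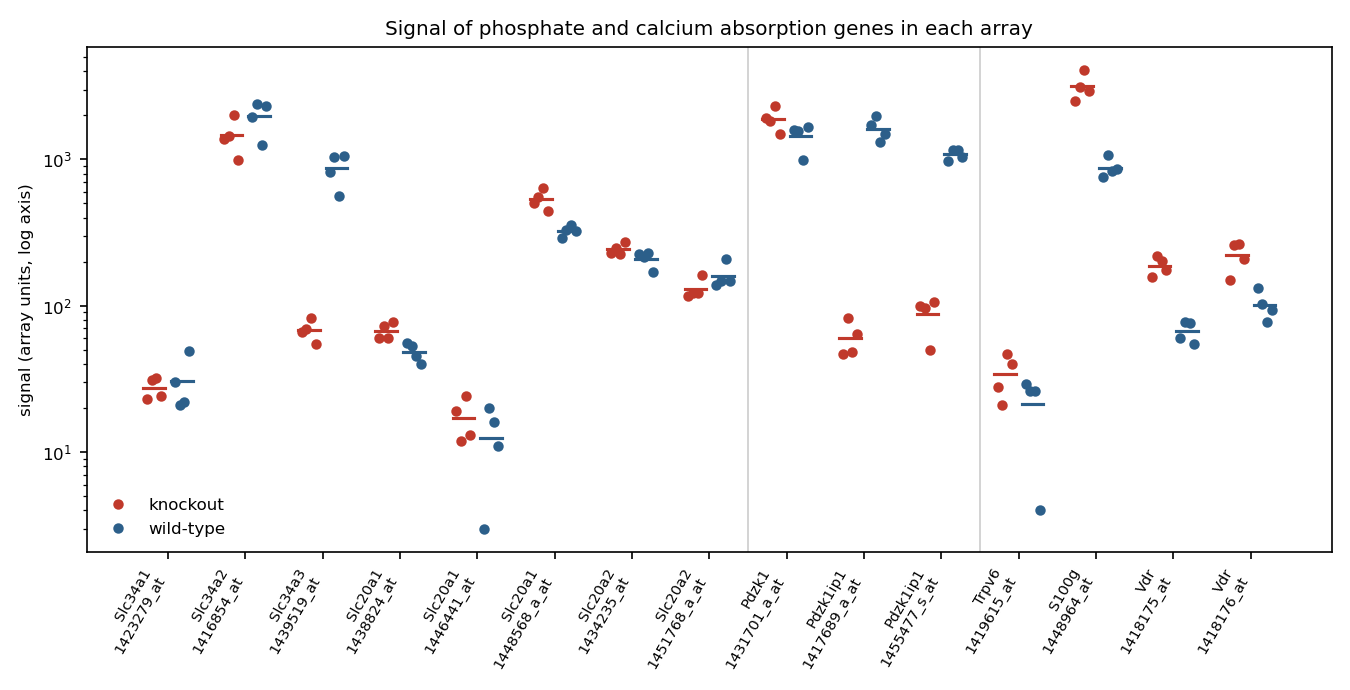
Signal of each of the 15 probe sets in array units on a log axis, with knockout arrays (red) left of wild-type arrays (blue), 1 point per array and a bar at the mean of 4. Slc34a3 and Pdzk1ip1 points of the knockout lie far below those of the wild-type, S100g and Vdr points lie above, and the Slc34a2 points of the genotypes overlap.

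Slc34a3, the phosphate cotransporter best known from kidney, was the cotransporter that differed most. Its probe set (1439519_at) gave 66, 69, 82 and 55 in the knockout arrays, against 823, 1039, 561 and 1052 in the wild-type arrays. Every knockout value lay far below every wild-type value. The means were 68 ± 11.1 in the knockout and 869 ± 230 in the wild-type (SD, n = 4 each), which is 12.8-fold more in wild-type, and the log2 fold change was -3.36 ± 0.19 (SE). Under the 20 alternative settings of the fit it was -3.66 to -2.79. The kidney markers were at 48 or below in the same arrays, but none of them marks the proximal tubule. The part of kidney tissue in the Slc34a3 values was not tested.

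Slc34a2, the main intestinal cotransporter, did not follow Slc34a3. Its probe set (1416854_at) gave 1372, 1448, 2013 and 995 in the knockout arrays, against 1934, 2387, 1253 and 2308 in the wild-type arrays. The genotypes overlapped, since wild-type replicate 3 lay below 3 of the knockouts. The means were 1457 ± 420 in the knockout and 1970.5 ± 518 in the wild-type (SD, n = 4 each), with a log2 fold change of -0.43 ± 0.22 (SE). It was negative in every alternative (-0.78 to -0.27) and was called lower in 3 of the 20, with array weights, without wild-type replicate 3, and without both that array and knockout replicate 4. Without wild-type replicate 3 it was -0.63, the lowest value with 1 array left out. The call of Slc34a2 thus changed with that array.

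Set against Slc34a2 within the same array, Slc34a3 brought the wild-type arrays closer together than either gene alone. The log2 signal of Slc34a3 minus that of Slc34a2 was -4.62 to -4.18 in the knockout arrays and -1.23 to -1.13 in the wild-type arrays. The SD of this difference was 0.18 in the knockout and 0.044 in the wild-type arrays (n = 4 each), and the mean difference between genotypes was -3.21. The level of such a ratio depends on the probes, so only its difference between genotypes can be read. It shows that the 2 genes changed unequally, and wild-type replicate 3, low for both, does not stand out in it.

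Of the remaining cotransporters, Slc20a1 alone had a called probe set. Slc20a1, a housekeeping type of phosphate cotransporter, gave 506, 550, 635 and 441 by its brightest probe set (1448568_a_at) in the knockout arrays, against 291, 329, 359 and 322 in the wild-type arrays. All knockouts lay above all wild-types, and the means of 533 ± 81.4 in the knockout and 325 ± 27.9 in the wild-type (SD, n = 4 each) are 1.64-fold apart, with a log2 fold change of 0.68 ± 0.12 (SE). A dimmer probe set (1438824_at) gave 60, 73, 60 and 77 in knockouts, against 56, 53, 45 and 40 in wild-types, again without overlap but not called (0.37 ± 0.16 SE). The third (1446441_at) gave 12 to 24 in knockouts and 3 to 20 in wild-types and was too dim to be tested. Both measurable probe sets of Slc20a1 thus pointed the same way.

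Slc20a2, the other housekeeping type, gave opposite signs by its probe sets, and neither was called. By 1434235_at the signals were 229, 248, 227 and 274 in the knockout arrays, against 224, 214, 228 and 169 in the wild-type arrays (log2 fold change 0.22 ± 0.12 SE). By 1451768_a_at they were 116, 123, 122 and 162 in knockouts, against 138, 148, 209 and 148 in wild-types (-0.26 ± 0.15 SE). The genotypes overlapped in both, so no direction can be given for this gene, and the second became 0.09 with the 3′/5′ ratio as a covariate. Slc34a1, the renal cotransporter, was dim in every array, with signals of 23, 31, 32 and 24 in knockouts and 30, 21, 22 and 49 in wild-types (1423279_at, -0.06 ± 0.23 SE). At this signal, close to the limit of about 23 used for testing, no difference could be detected.

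The scaffold gene and its partner parted. Pdzk1 (1431701_a_at) gave 1908, 1817, 2334 and 1481 in the knockout arrays, against 1580, 1558, 984 and 1659 in the wild-type arrays. The genotypes overlapped and Pdzk1 was not called in any setting. The means were 1885 ± 351 in the knockout and 1445 ± 311 in the wild-type (SD, n = 4 each), with a log2 fold change of 0.39 ± 0.17 (SE) that became 0.07 with the 3′/5′ ratio as a covariate.

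Pdzk1ip1 had the largest change of the 10 genes, and both of its probe sets showed it. By 1417689_a_at it gave 47, 83, 48 and 64 in the knockout arrays, against 1714, 1973, 1324 and 1480 in the wild-type arrays. By 1455477_s_at it gave 99, 97, 50 and 106 in knockouts, against 976, 1154, 1165 and 1039 in wild-types. No knockout value came near a wild-type value in either. The means were 60.5 ± 16.9 in the knockout and 1623 ± 283 in the wild-type by the first probe set (SD, n = 4 each), 26.8-fold more in wild-type, and 88 ± 25.6 and 1083.5 ± 91.6 by the second, 12.3-fold more. The log2 fold changes were -4.43 ± 0.17 and -3.44 ± 0.18 (SE). The size of the first depended on the added constant, at -4.75 with 1 in place of 16 and -3.75 with 64, because the knockouts were dim.

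**Figure D2:**
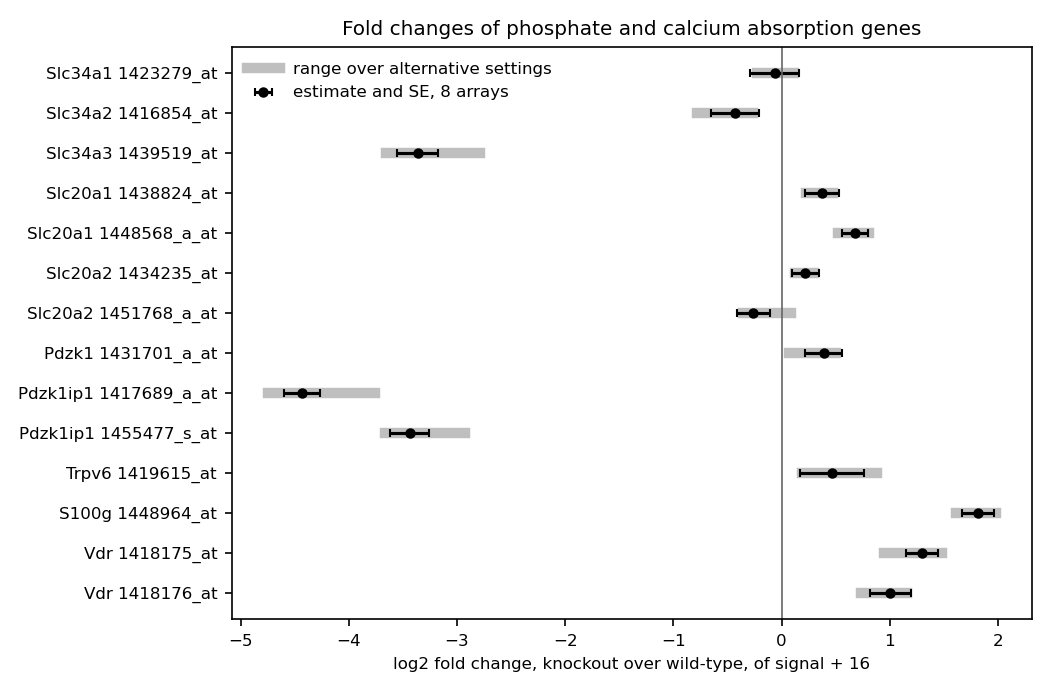
Log2 fold change, knockout over wild-type, of signal + 16 for the 14 tested probe sets, with SE bars from the fit of 8 arrays and grey bands for the range over the alternative settings. The bands of Slc34a1 and of Slc20a2 by 1451768_a_at cross 0, and those of the other probe sets do not.

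On the calcium side, S100g, which ferries calcium through the enterocyte, had the largest increase of the 10 genes. Its probe set (1448964_at) gave 2488, 3124, 4086 and 2929 in the knockout arrays, against 757, 1066, 827 and 860 in the wild-type arrays. The lowest knockout lay above 2 times the highest wild-type. The means were 3157 ± 674 in the knockout and 877.5 ± 133 in the wild-type (SD, n = 4 each), 3.60-fold apart, with a log2 fold change of 1.82 ± 0.15 (SE). Over the alternatives it was 1.61 to 1.98. The knockouts without Xist signal, replicates 1 and 4, were the 2 lowest knockouts and still lay above every wild-type. In the arrays without Xist signal the log2 fold change was 1.615. S100g lies on the X chromosome, and only knockout arrays had Xist signal. The part of sex in the S100g values was not tested.

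Vdr, the receptor for hormonal vitamin D, was higher in the knockout by both probe sets. By 1418175_at it gave 158, 218, 201 and 175 in the knockout arrays, against 60, 77, 76 and 55 in the wild-type arrays. By 1418176_at it gave 151, 260, 264 and 209 in knockouts, against 132, 103, 78 and 93 in wild-types. In each probe set all knockouts lay above all wild-types, though in the second knockout replicate 1 came close to wild-type replicate 1. The means were 188 ± 26.7 in the knockout and 67 ± 11.2 in the wild-type by the first (SD, n = 4 each, 2.81-fold), and 221 ± 53.0 and 101.5 ± 22.8 by the second (2.18-fold). The log2 fold changes were 1.30 ± 0.15 and 1.00 ± 0.19 (SE).

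The Vdr difference was smaller in the arrays without Xist signal. Knockout replicates 2 and 3, the arrays with Xist signal, were the highest knockouts in both probe sets. Without them the log2 fold change over 6 arrays was 1.15 by 1418175_at, which stayed called, and 0.74 by 1418176_at, which did not. The second was also not called with the Xist signal as a covariate, at 0.74, or with the 3′/5′ ratio as a covariate, at 1.07. Trpv6, the apical calcium channel, was dim, at 28, 21, 47 and 40 in the knockout arrays and 29, 26, 26 and 4 in the wild-type arrays (1419615_at, 0.46 ± 0.29 SE). The genotypes overlapped, and a difference in Trpv6 was not detectable at this signal.

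Within a genotype, several of the genes were high or low in the same arrays. Wild-type replicate 3 was the lowest wild-type array in 5 of the 15 probe sets and the highest in 4, those of Slc20a2, 1 of Slc20a1 and 1 of Pdzk1ip1. On the log2 scale it lay below the mean of the other wild-types by 0.80 for Slc34a2 (a difference of -0.80), and it differed by -0.77 for Slc34a3, -0.69 for Pdzk1, -0.10 for S100g and 0.49 for Slc20a2 by 1451768_a_at. Knockout replicate 3 was the highest knockout in 9 probe sets and the lowest in 2, and knockout replicate 4 was the lowest in 4 and the highest in 4. The deviations of Slc34a2 from its genotype mean over 8 arrays had r = 0.96 with those of Pdzk1, 0.94 with Slc34a3 and 0.60 with S100g. Without knockout replicate 4 and wild-type replicate 3 the order turned, with r = 0.82 for Pdzk1, 0.85 for Slc34a3 and 0.91 for S100g. Other probe sets ran against Slc34a2, at r = -0.82 for Slc20a2 by 1451768_a_at (0.58 without those arrays), -0.66 by 1434235_at (-0.35) and -0.66 for Pdzk1ip1 by 1455477_s_at (-0.72). These correlations describe 8 arrays, and the part of shared tissue makeup in them was not tested.

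The genes whose deviations were most like those of Slc34a2 among all tested probe sets were Fuca2, a fucosidase (r = 0.996, rho = 1.00), Me1, the cytosolic malic enzyme (r = 0.996, rho = 0.98), and Enpp3, an ectonucleotidase (r = 0.996, rho = 0.95). Without the arrays farthest from the middle, knockout replicate 4 and wild-type replicate 3, r was 0.997, 0.982 and 0.981 over 6 arrays. For S100g they were Prdm16, a transcriptional regulator (r = 0.98, rho = 0.98), Snx9, a sorting nexin (r = 0.98, rho = 0.95), and Ctbs, a chitobiase (r = 0.98, rho = 0.91). Without knockout replicate 3 and wild-type replicate 2, r was 0.91, 0.96 and 0.90. All were picked as the highest among the tested probe sets with 1 symbol, so a high r is part of the choice. Their fold changes differed: Fuca2 had -1.34 and Me1 0.45, beside -0.43 for Slc34a2, and Prdm16 had -0.98, beside 1.82 for S100g.

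**Figure D3:**
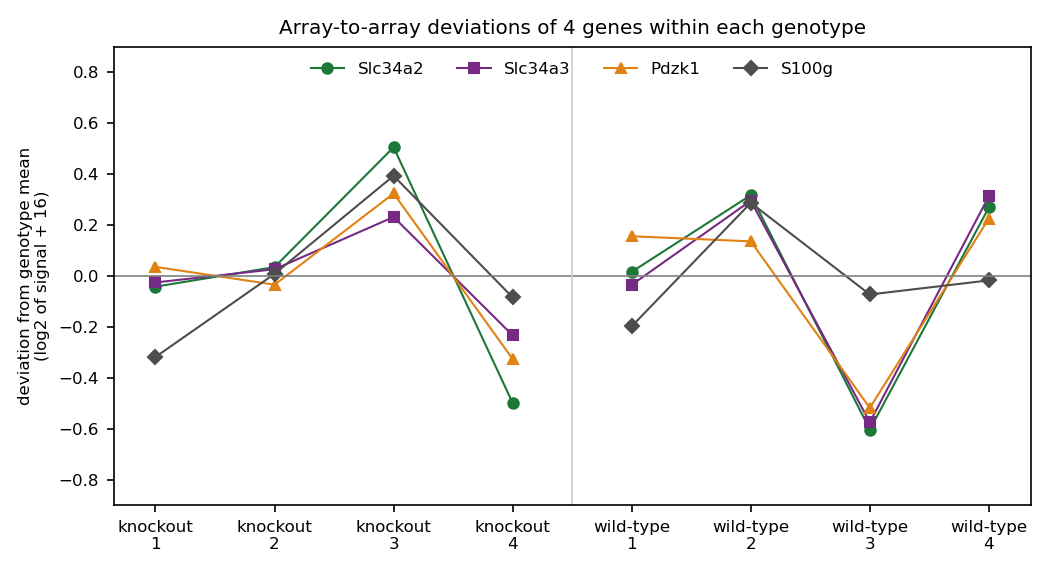
Deviation of log2(signal + 16) from the genotype mean in each of 8 arrays for Slc34a2, Slc34a3, Pdzk1 and S100g, with knockouts left of wild-types. Lines join the points of a gene and stand for no order. In wild-type replicate 3 the points of Slc34a2, Slc34a3 and Pdzk1 lie below those of the other wild-type arrays, and that of S100g does not stand apart.

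Marker lists moved with the same arrays. The summed signal of 9 epithelial markers was 35769 to 45025 in the knockout and 33180 to 37423 in the wild-type arrays (exact permutation p = 0.0857), lowest in knockout replicate 4 and in wild-type replicate 3 of each genotype. The summed signal of 7 mesenchyme and smooth muscle markers was 14361 to 22224 in the knockout and 12381 to 18340 in the wild-type arrays (exact permutation p = 0.171), and the same arrays, at 22224 and 18340, were the highest. Their part in the low Slc34a2 and Pdzk1 values of those arrays was not tested. Of the epithelial markers Krt20, a keratin of mature enterocytes, was called higher (2.55 ± 0.19 SE, adjusted p = 5.89e-06 in the limma fit), Krt8 higher and Cdx1 lower, while Epcam had -0.07 (adjusted p = 0.592). Krt20 gave 2139 to 4412 in knockouts and 413 to 648 in wild-types, and Krt8 gave 5136 to 6997 and 3823 to 4512. Also not called were Vil1 (0.28), Cdx2 (-0.38), Cdh17 (-0.13), Lgals4 (-0.02) and Fabp2 (-0.02). The higher epithelial sum in knockouts thus came with higher Krt20 and Krt8, not with all markers. Neither mesenchyme nor endothelium nor nerve had a called marker.

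Other lists bear on position along the gut and on other tissues. The 5 markers of the proximal small intestine summed to 2760 to 4398 in the knockout and 4150 to 5821 in the wild-type arrays (exact permutation p = 0.0857), and the iron exporter Slc40a1 was the 1 of them called, as lower. Most of the sum came from Slc40a1, at 1942 to 3106 in knockouts and 3326 to 4589 in wild-types. Not called were Pdx1 (0.26), Gata4 (0.15), Onecut2 (0.13) and Cybrd1 (-0.32). Of the distal markers, none of 4 tested was called, and Fabp6, a bile acid binding protein of the ileum, gave 321, 4286, 4505 and 131 in knockouts, against 222, 460, 13 and 101 in wild-types. Of the other distal markers, Slc51a had -0.37, Slc51b -0.81 and Osr2 0.26, and Slc10a2 was at 13 or below in every array. The knockouts high in Fabp6 were replicates 2 and 3, which were also the highest for Vdr and S100g. The part of gut region in those values was not tested. The 4 leukocyte markers summed to 1027 to 1413 in the knockout and 3359 to 4879 in the wild-type arrays (exact permutation p = 0.0286), nearly all of it from Csf1r, the growth factor receptor of macrophages, which gave 628 to 858 in knockouts and 2874 to 4306 in wild-types. Ptprc, Cd52 and Lyz2 of that list were not called. Both colon markers measured were at 27 or below in every array.

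The wider pathway was read from 59 other genes in 5 lists, of which 41 had a tested probe set. These genes were not chosen for how they moved, though earlier results of the arrays were known. Each gene is represented by its brightest tested probe set. Of the 41, 7 were called higher, where 6.6% of all 12838 genes were, 3 lower, where 8.5% were, and 31 were not called. Their median log2 fold change was 0.18, beside 0.03 over all genes. All adjusted p-values here come from the limma fit over all tested probe sets.

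Of 11 calcium entry and exit genes, 7 were tested and 0 were called higher or lower, with a median of 0.26. The 2 with the smallest p were Trpm7, a cation channel with a kinase domain (-0.26, adjusted p = 0.112), and Cacna1d, a voltage-gated calcium channel of low signal (0.37, adjusted p = 0.215). The genotypes did not overlap in either, with all knockouts lower for Trpm7 and higher for Cacna1d. Atp2b1, the plasma membrane pump that moves calcium out at the basolateral side, gave 692, 889, 1042 and 860 in knockouts, against 800, 821, 716 and 712 in wild-types (0.18 ± 0.12 SE, adjusted p = 0.402). It was looked up after its value was seen.

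The list of calcium channel trafficking, sensing and tight junctions moved in both directions. Of 8 listed, 7 were tested, 4 were called higher and 2 lower (median 0.47), where 6.6% and 8.5% of all genes were. With the 3′/5′ ratio as a covariate none of the 4 higher calls held, and the 2 lower calls did. Cldn2, the claudin that makes cation-selective, calcium-permeable pores between cells, gave 456, 478, 684 and 386 in the knockout arrays, against 2524, 2752, 1980 and 2649 in the wild-type arrays (1417231_at). It fell in every knockout, to 501 ± 128 in the knockout, against 2476 ± 344 in the wild-type (SD, n = 4 each, log2 fold change -2.29 ± 0.16 SE, adjusted p = 3.11e-06), and its second probe set had -2.37. Cldn15, a claudin that makes sodium-permeable pores, rose, with 624, 637, 612 and 578 in knockouts, against 330, 382, 261 and 389 in wild-types (0.83 ± 0.13 SE, adjusted p = 0.000985). With the 3′/5′ ratio as a covariate Cldn15 had 0.63 and was not called (adjusted p = 0.0818). Cldn12, also linked to calcium, had -0.18 (adjusted p = 0.324).

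Genes whose proteins bring calcium channels to the membrane or act on apical transporters were called in both directions too, by RNA signal. Rab11a, a GTPase of recycling endosomes known to bind Trpv6, fell, with 1675, 1835, 2076 and 1629 in knockouts, against 3946, 4167, 3205 and 3942 in wild-types (-1.07 ± 0.10 SE, adjusted p = 3.83e-05), and both of its probe sets were called. Anxa2, an annexin that joins S100a10 in a complex binding Trpv6, rose, with 4285, 4291, 5370 and 3378 in knockouts, against 2429, 2415, 2152 and 2511 in wild-types (0.84 ± 0.12 SE, adjusted p = 0.000657). A dimmer Anxa2 probe set had -0.44, and with the mean of the probe sets the call ended (adjusted p = 0.43). S100a10 itself was called higher (0.47 ± 0.13 SE, adjusted p = 0.0319) with overlapping genotypes. The S100a10 call ended with the Xist signal or the 3′/5′ ratio as a covariate, among other settings. Sgk1, a kinase that raises the activity of several apical transporters, rose, with 4454, 4052, 5138 and 2988 in knockouts, against 2348, 2205, 959 and 2867 in wild-types (1.06 ± 0.28 SE, adjusted p = 0.0291). The Sgk1 call ended in 10 of 21 alternatives, among them without knockout replicate 1, 2 or 3 or wild-type replicate 2 (adjusted p = 0.0561 to 0.078), and with the 3′/5′ ratio as a covariate (0.568).

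Of 10 vitamin D genes, 5 were tested, 1 was called higher and 0 lower (median 0.10). Cyp27a1, a mitochondrial sterol hydroxylase that can also hydroxylate vitamin D, gave 360, 326, 494 and 150 in the knockout arrays, against 51, 48, 59 and 85 in the wild-type arrays. All knockouts lay above all wild-types (2.10 ± 0.29 SE, adjusted p = 0.000489), and the call held in all 21 alternatives. The retinoid X receptor genes Rxra (-0.20, adjusted p = 0.352) and Rxrb (-0.02, adjusted p = 0.973), whose products pair with Vdr, were not called. Neither were Ncoa1 (0.10, adjusted p = 0.695) and Med1 (0.27, adjusted p = 0.0847), though for Med1 all knockouts lay above all wild-types. These uncalled genes fall outside the rule for named genes and were named after their values were seen. Cyp24a1, the hydroxylase that inactivates vitamin D and a known Vdr target, and Cyp27b1, which activates it, were too dim to be tested, with highest signals of 41 and 20.

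Phosphate export and hormone genes were mostly uncalled. Of 18 listed, 11 were tested, 0 were called higher and 1 lower (median 0.04). Galnt3, a glycosyltransferase known to protect the phosphate hormone Fgf23 from cleavage, gave 138, 158, 167 and 67 in the knockout arrays, against 232, 299, 271 and 273 in the wild-type arrays. It fell in every knockout (-0.998 ± 0.22 SE, adjusted p = 0.011), and with the 3′/5′ ratio as a covariate the fold change was -1.21 but no longer called (0.0697). Xpr1, the phosphate exporter of the cell membrane, had -0.30 by its brightest probe set (adjusted p = 0.0822), with no overlap between genotypes. Over its 6 tested probe sets the fold change was -0.72 to -0.16, and 1 of them was called lower. It was looked up after its value was seen.

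Of 12 genes of apical PDZ scaffolds and the transporters they hold, 11 were tested, 2 were called higher and 0 lower (median 0.14). Slc9a3r1 (NHERF1), a PDZ scaffold that binds phosphate cotransporters of the kidney, gave 3658, 4059, 4955 and 2982 in knockouts, against 4219, 4035, 3091 and 4486 in wild-types (-0.03 ± 0.15 SE, adjusted p = 0.936). Slc9a3r2 (NHERF2), a related scaffold, was called higher by its brightest probe set (112, 118, 91 and 99 in knockouts, against 76, 65, 74 and 73 in wild-types, 0.46 ± 0.13 SE, adjusted p = 0.046). The Slc9a3r2 call ended in 14 of 21 alternatives, among them 7 of the 8 with 1 array left out (adjusted p = 0.0548 to 0.14), all but the one without knockout replicate 3, and its other 5 probe sets were not called. Slc26a6, an anion exchanger, was called higher (0.84 ± 0.22 SE, adjusted p = 0.03) with overlapping genotypes. The Slc26a6 call ended with the Xist signal or the 3′/5′ ratio as a covariate, among other settings. Slc9a3r1 and Slc26a6 fall outside the rule for named genes and were named after their values were seen.

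**Figure D4:**
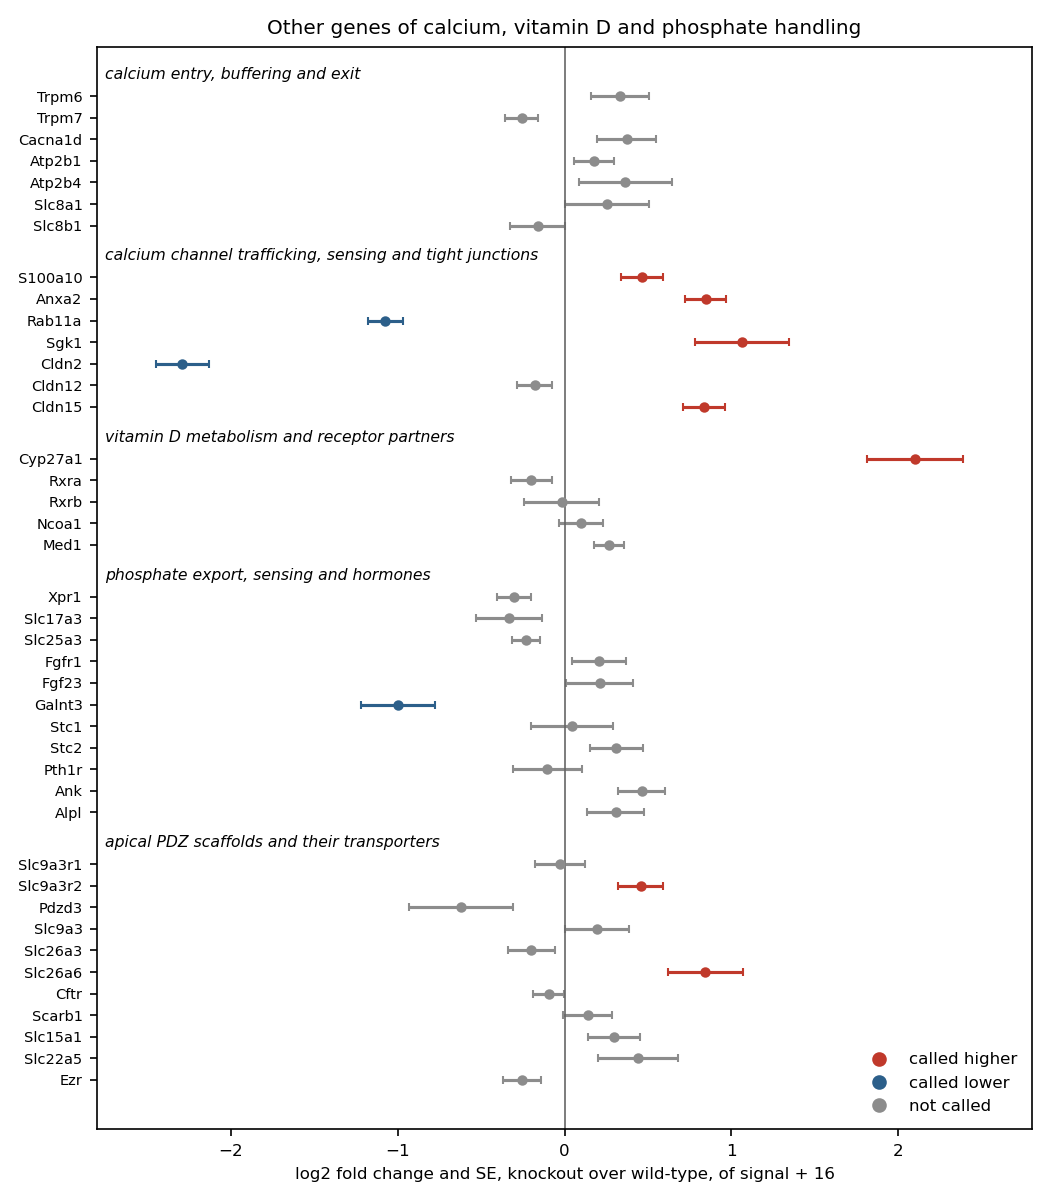
Log2 fold change with SE, knockout over wild-type, of signal + 16 for the 41 tested genes of the 5 lists, 1 brightest probe set per gene from 8 arrays. Red marks the 7 genes called higher, blue the 3 called lower (Rab11a, Cldn2 and Galnt3) and grey the 31 not called.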

How the data were processed

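Gene expression was measured on Affymetrix MOE430 2.0 arrays in small intestine of 4 Plagl2 knockouts and 4 wild-types. Per the labels, RNA was copied from an oligo-dT primer and transcribed into biotinylated cRNA. The authors deposited 1 signal intensity per probe set and array on a linear scale. Trimming 2% at each end gave a mean of about 150.05 in every array, so arrays had been scaled before deposit. How signals were summarised is not given in the sources used here. No detection calls were given, and 1080 values are 0.

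The 64 control probe sets and the 40% of the others with the lowest mean log2 level were left out, which left 27022. Signals were fitted as log2(signal + 16) by lmFit and eBayes of limma (version 3.58.1, R 4.3.3) with a trend on mean level, and the model held genotype alone. The platform annotation names 34958 probe sets with a single symbol. Sums of markers were compared with exact two-sided permutation tests (scipy 1.17.1). The limma fit, not the permutation test, was checked on simulated arrays with known changes. Those arrays were independent, with equal spread and none of the Xist, 3′/5′ or tissue differences of the real ones. Replicate numbers of the genotypes do not pair the samples by the labels or the data (correlations of -0.274 to -0.011 between same-numbered arrays). The labels name no litters, so a p-value reflects only how these samples vary, which may be technical, and the number of arrays limits the precision.

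The genes and lists were chosen with earlier results of these data known. Of each list the rule names every called gene without overlap between genotypes, up to 5 by smallest p, or the 2 with the smallest p where none was called, and for Slc34a2 and S100g the 3 probe sets with the most similar deviations. Marker lists are named where they bear on a gene. Alternatives were no filter, a 60% filter, quantile normalization, offsets of 1 and 64, the replicate block, array weights, no intensity trend, the Xist signal or 3′/5′ ratio as a covariate, arrays without Xist signal, both arrays that stand apart left out, the mean of a gene's probe sets, an adjusted p under 0.01, and each array left out.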

Additional observations from a re-analysis of the deposited data

Results flagged for a closer look

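Of 72 groups of 4 arrays examined (the probe sets of the 10 genes, the named pathway genes and the marker sums), 8 held an array far from the other 3. The number in brackets is its gap to the nearest of them over the range of the group, each past the limit of Dixon's test for 4 values. Chance marks about 1 in 20 such groups (3.6 of 72) where groups are independent and values normally distributed. These groups share the same arrays, and some share a gene, so 8 beside 3.6 measures no excess.

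Slc20a2 by 1451768_a_at gave 162 in knockout replicate 4, against 116 to 123 in the other knockouts (0.848), and 209 in wild-type replicate 3, against 138 to 148 in the other wild-types (0.859). Pdzk1 gave 984 in wild-type replicate 3, against 1558 to 1659 in the other wild-types (0.850). Pdzk1ip1 by 1455477_s_at gave 50 in knockout replicate 3, against 97 to 106 in the other knockouts (0.839). Trpv6 gave 4 in wild-type replicate 4, against 26 to 29 in the other wild-types (0.880). Trpm7 gave 889 in wild-type replicate 4, against 754 to 760 in the other wild-types (0.956). The 4 pancreas markers summed to 4139 in knockout replicate 1, against 398 to 537 in the other knockouts (0.963), and to 252 to 2276 in the wild-types. The 4 liver markers summed to 5910 in knockout replicate 4, against 13 to 785 in the other knockouts (0.869), and to 74 to 220 in the wild-types. The part of pancreas or liver tissue in the values of the 10 genes was not tested.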

How the results depend on the processing

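Among the probe sets of the 10 genes, 3 to 4 were called higher and 3 to 4 lower in all 20 alternatives, beside 4 and 3 in the reported fit, and no called probe set changed sign. Slc34a1 and Slc20a2 by 1451768_a_at, both uncalled, changed sign in 1 alternative each. Of the 59 other pathway genes 7 were higher and 3 lower in the reported fit. The number higher was 4 with no filter, 4 with no intensity trend, 3 with the Xist covariate, 1 with the 3′/5′ ratio as a covariate, 3 in the 6 arrays free of Xist signal and 3 at an adjusted p under 0.01. With 1 array left out it was 3 to 6 higher and 3 to 5 lower. It was 3 higher without knockout replicate 1 or 2, 4 without knockout replicate 3 or wild-type replicate 1, 2 or 3, and 5 lower without knockout replicate 3 or wild-type replicate 3. With the replicate block 3 were higher and 3 lower. The block ended the calls of Sgk1 (adjusted p = 0.0889), Slc9a3r2 (0.139), S100a10 and Slc26a6. It left 1915 of 27022 probe sets called, beside 3238 without it. The 3′/5′ covariate left 1378 called and ended the call of Cldn15 (0.63, adjusted p = 0.0818, beside 0.83 in the reported fit) and Anxa2 (0.73, adjusted p = 0.0503, beside 0.84). It also ended those of Sgk1, Slc9a3r2, S100a10 and Slc26a6, so that Cyp27a1 alone stayed called higher. With array weights 5215 were called. The number called was 2024 with the Xist covariate, 2145 in the 6 arrays free of Xist signal, and 2224 to 4246 with 1 array left out. The causes of these changes were not tested. Slc34a1 and Trpv6 lie near the testing limit and Slc20a1 by 1446441_at lies below it, so their values show little. Slc20a1 by 1438824_at, at 40 to 77, passed the limit but was left out by the 60% filter.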
